A study of Arabidopsis thaliana with 38 samples.

Results

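The UDP-glycosyltransferase (UGT) family was taken as all probe sets annotated to exactly 1 gene whose symbol is UGT followed by a digit. This gave 47 probe sets of 47 genes, among 13513 probe sets with exactly 1 gene and 22746 in use on the array, and 3 further UGT probe sets with several genes were left out. UGT enzymes move a sugar from a UDP-sugar donor onto a small acceptor molecule, which makes the acceptor more soluble and lets it be stored or inactivated. In plants the acceptors include monolignols (the alcohols that lignin is made from), hydroxycinnamic acids, flavonols, hormones, salicylic acid, the precursors of glucosinolates and membrane sterols. A UGT name carries a subfamily number, and the 47 genes fall into 11 subfamilies: 9 genes in 71, 4 in 72, 7 in 73, 3 in 74, 8 in 76, 3 in 78, 5 in 84, 5 in 85 and 1 each in 80, 87 and 88. All 47 symbols matched the TAIR10.1 gene table, which holds 58 protein-coding genes of that name.

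RNA of roots of 5-day Arabidopsis thaliana seedlings was read on 38 single-colour ATH1 arrays in 13 groups. The first 10 groups (30 arrays, 3 per group) held J0571-sorted cells of ecotype C24, where J0571 marks cortex and endodermis, the ground tissue. They comprised 6 lines in which UAS drives BLJ, NUC, MGP, JKD, SCR or IME in the SHR line, the SHR line itself and wild type (WT), all labelled by a one-cycle protocol (24 arrays), and SHR and WT again by a two-cycle protocol (6 arrays). The other groups, of ecotype Columbia, were also made by the one-cycle protocol. They were WT cells sorted for CO2, which marks the cortex (3 arrays), and dissected meristematic zones labelled BLJ (3 arrays) or WT (2 arrays). The labels of the CO2 cells also name the meristematic zone, while those of the J0571 cells name no zone. The UAS lines share the SHR background and, as a reference, the same 3 SHR arrays. Whether the names SHR and BLJ denote mutants, and whether a UAS line is 1 transformant, is not given in the labels. They call the replicates biological without saying what was separate, and a p-value here covers the spread between these arrays.

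Signals are MAS5 intensities, and a change is a difference of log2(signal + 16) with its standard error (SE). For meristem BLJ against WT alone, these log2 values were quantile-normalized between arrays first. On this scale the changes of dim probe sets are understated. A member counts as called where limma's adjusted p, after Benjamini and Hochberg over all probe sets of the fit, lay under 0.05. Probes differ in brightness, so levels are compared between groups for 1 gene and never between genes.

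Array medians lay between 55.8 and 177.5. The meristem BLJ arrays stood apart from the rest, with replicate correlations of 0.70 to 0.88, against at least 0.92 within each of the other groups. Their 3' GAPDH control probe set was 7.25 ± 2.68 above its 5' counterpart, against 3.51 ± 0.12 in WT meristems, while for actin the difference was 5.04 ± 1.11 in BLJ, against 6.32 ± 0.02 in WT (SD, log2, n = 3 and 2). Of the genes in the labels, JKD alone had a probe set that the annotation names. It read 88.9 to 119 on the arrays labelled UAS-JKD, below the 175 to 257 of SHR. The group is therefore called the line labelled UAS-JKD. A low reading was not particular to it, with 19.4 to 37.1 in UAS-BLJ, 19.7 to 27.9 in UAS-IME and 59.1 to 70.6 in UAS-NUC. UAS-MGP had 106 to 139 and UAS-SCR 113 to 236. Whether this probe set reports the driven transcript is not known. Of 13 endodermis markers 4 could be named, and their summed signal was 1198 to 1652 in SHR, against 4580 to 6533 in WT (one-cycle), with 3 called lower and AT4G28100 called higher in SHR. The 5 cortex markers summed to 3520 to 4052 in SHR, against 1195 to 1690 in WT, with 2 called higher (AT1G62500 and AT1G62510) and 1 lower (AT5G02000). None of 6 stele markers could be named. In CO2 cells the 5 cortex markers summed to 1413 to 1850, against 144 to 151 in WT meristems, with 4 called higher. The exception, AT1G62500, carries the name CO2 in the marker list. It averaged 79.1 in CO2 cells, against 108 in WT meristems and 238 in one-cycle J0571 WT cells. The 4 endodermis markers summed to 550 to 1033 in CO2 cells, against 309 to 345 in WT meristems, with 3 called higher and 1 lower. Of 2 named epidermis and root hair markers 1 was called higher. In these bulk samples fewer cells of a type and less RNA per cell cannot be told apart.

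Across the 13 groups the family varied more than the array as a whole. The median standard deviation of the 13 log2 group means was 0.66 for the 47 members, against 0.52 for all 22746 probe sets. UGT72E3 had the widest spread of the family (1.62), followed by UGT76B1 (1.48), UGT71C1 (1.41), UGT84A1 (1.39) and UGT73D1 (1.31). Of the 47, 37 passed the filter on low signal in at least 1 comparison. The other 10 (UGT71B6, UGT71B8, UGT73C1, UGT73C2, UGT76E11, UGT78D3, UGT84B1, UGT84B2, UGT85A3 and UGT85A5) were tested nowhere. They include UGT84B1, which glucosylates the auxin indole-3-acetic acid, UGT71B6, an abscisic acid glucosyltransferase, and UGT78D3, a flavonol arabinosyltransferase. Over 12 comparisons (without those of a line against the other lines), 36 of the 37 were called at least once, as were 89% of all probe sets tested at least once, and UGT88A1 was tested but never called.

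**Figure D1:**
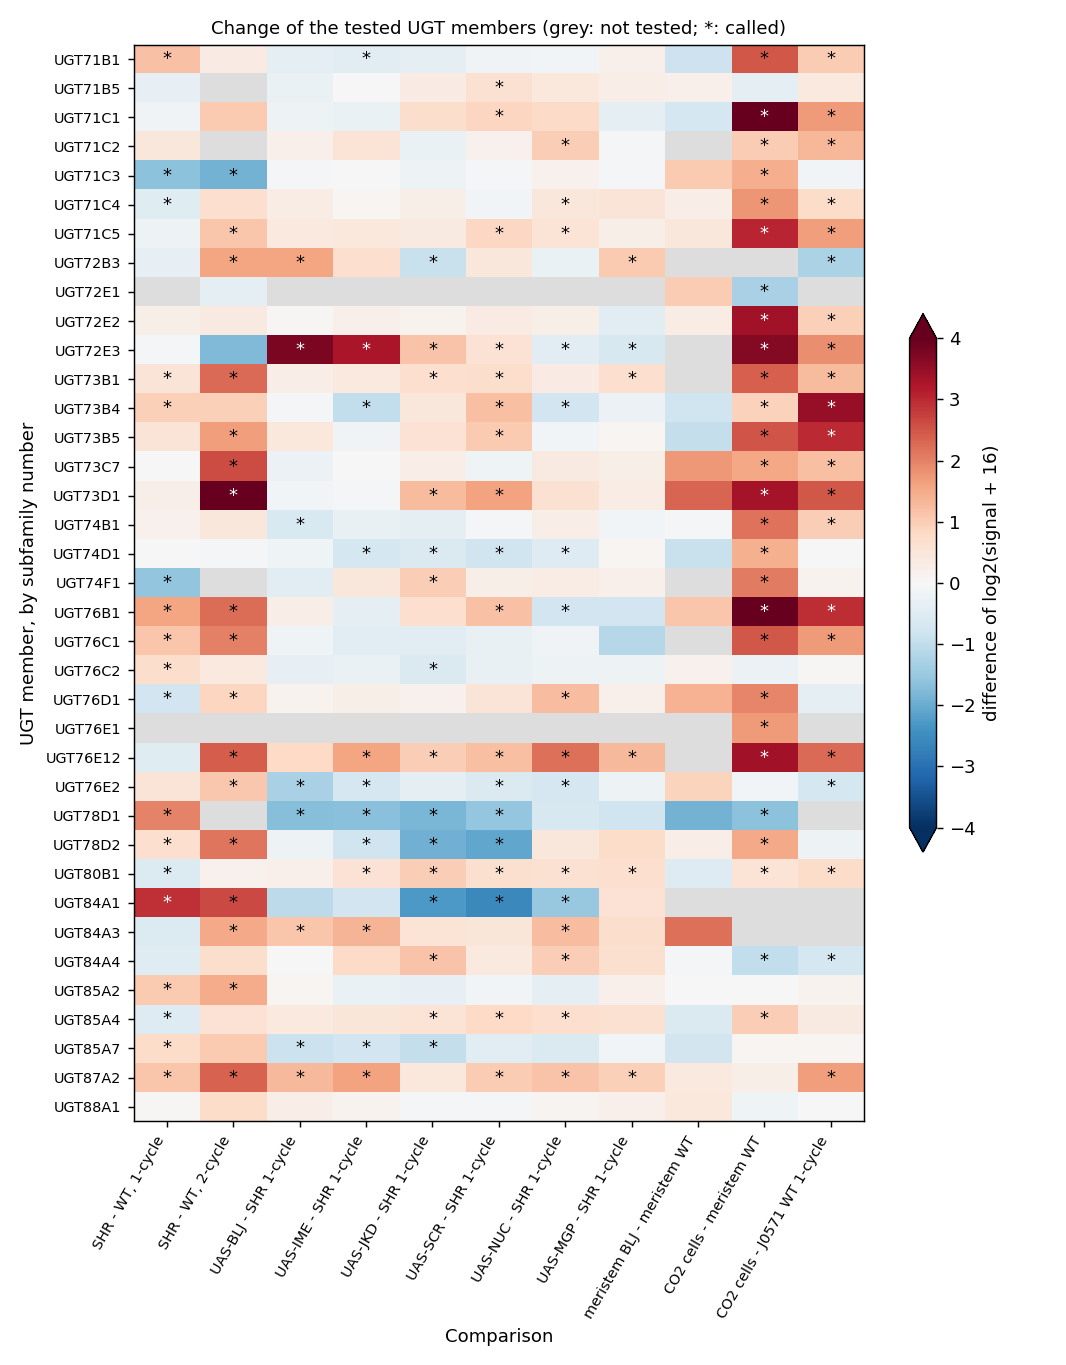
Change of the 37 tested UGT members (rows, by subfamily number) in 11 comparisons (columns), as the difference of log2(signal + 16), with red for higher and blue for lower in the first-named group, grey for not tested and a star for an adjusted p under 0.05. UGT72E3 is deep red in UAS-BLJ and UAS-IME, UGT84A1 and the subfamily 78 members are blue in the lines labelled UAS-JKD and UAS-SCR, and most members are red in the CO2 columns.

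In each subfamily of 3 or more members, the probe set of highest mean signal is described across the groups. UGT71C1, UGT72E2, UGT73B4 and UGT76B1 had their highest mean in CO2 cells (1473, 3241, 1729 and 5475). UGT78D2, UGT84A1, UGT85A2 and UGT74D1 had theirs in UAS-MGP (1596, 410, 1500.5 and 1383). WT meristems held the lowest mean of UGT71C1 (33.3), UGT72E2 (304), UGT76B1 (142) and UGT78D2 (173). UGT73B4 was lowest in UAS-IME (134), UGT74D1 in meristem BLJ (314), UGT84A1 in CO2 cells (3.70) and UGT85A2 in two-cycle WT (255).

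UGT72E3 forms glucosides of monolignols together with UGT72E2, and it was the member with the most marked pattern among the lines. Its signal was 907, 1114 and 1017 in UAS-BLJ and 836, 693 and 631 in UAS-IME, against 66.6, 57.8 and 55.3 in SHR. No array of the other groups came near these 6. In the line labelled UAS-JKD it read 179, 139.5 and 133, and in UAS-SCR 106, 78.8 and 105, again above every SHR array. UAS-NUC (32.7, 38.02 and 48.0) and UAS-MGP (22.7, 41.5 and 35.0) lay below every SHR array. One-cycle WT, at 58.3, 57.0 and 71.4, overlapped SHR.

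**Figure D2:**
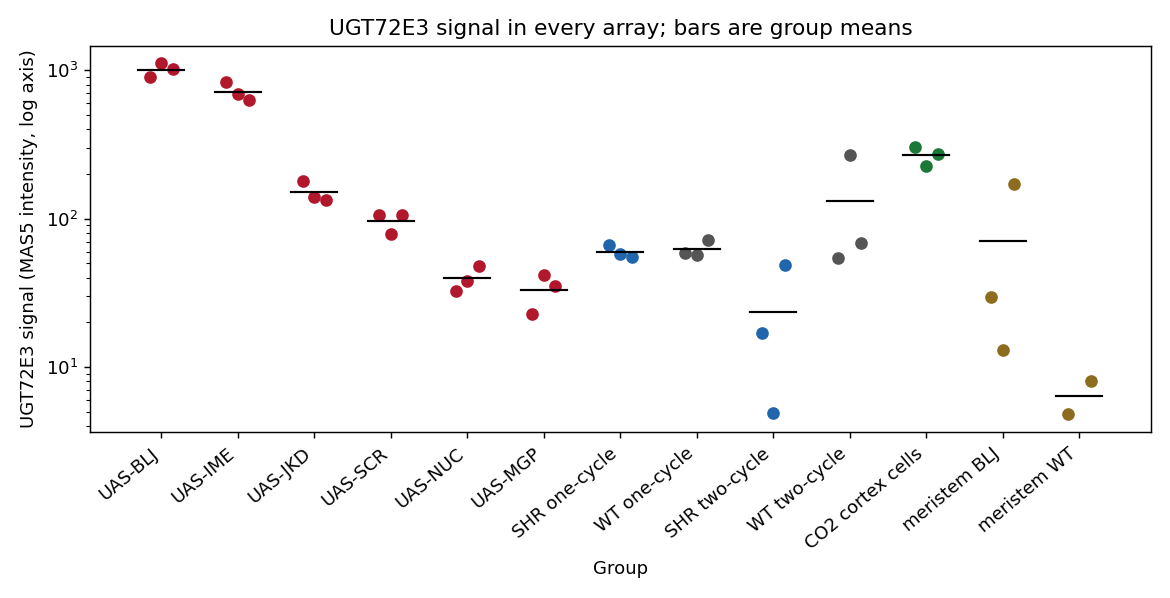
UGT72E3 signal (MAS5 intensity, log axis) in each of the 38 arrays by group, with bars at the group means and colours for UAS lines (red), SHR (blue), J0571 WT (dark grey), CO2 cells (green) and meristems (brown). UAS-BLJ and UAS-IME sit between 631 and 1114, and one-cycle SHR and WT between 55.3 and 71.4.

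The change of UGT72E3 in UAS-BLJ was known beforehand and led to its being singled out, so its log2 change of 3.76 ± 0.17 is given as a description. Against SHR, UGT72E3 rose in UAS-IME by 3.27 ± 0.17 (adjusted p = 3.86e-11). It also rose in the line labelled UAS-JKD (1.13 ± 0.17, adjusted p = 5.55e-05) and in UAS-SCR (0.56 ± 0.17, adjusted p = 0.0111). The UAS-SCR call ended without UAS-SCR replicate 3 (adjusted p = 0.0528). UGT72E3 fell in UAS-MGP (-0.65 ± 0.17, adjusted p = 0.0204) and UAS-NUC (-0.46 ± 0.17, adjusted p = 0.0377). Both calls ended with a pseudocount of 64 (adjusted p = 0.072 and 0.0915) and on the 6 arrays of the compared groups alone (0.0794 and 0.0978). The UAS-MGP call also ended without SHR 2_1 (0.0834), SHR 2_2 (0.0508) or UAS-MGP 1 (0.115). The UAS-NUC call also ended with no filter (0.0554), without any 1 SHR array (0.0575 to 0.112), and without UAS-NUC 1 (0.165) or 2 (0.0586). Ordered by level, UAS-BLJ and UAS-IME came first without overlap between them, then the line labelled UAS-JKD, then UAS-SCR, then SHR and WT, and last UAS-NUC and UAS-MGP, which overlapped each other.

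Under the two-cycle protocol UGT72E3 read 16.9, 4.93 and 48.5 in SHR, against 54.3, 271 and 69.1 in WT. The groups did not overlap, but the change of -1.76 ± 0.61 missed the threshold (adjusted p = 0.0631). It passed without SHR replicate 3 (-2.19, adjusted p = 0.0464). CO2 cells had 306, 228 and 273, against 4.79 and 8.04 in WT meristems. Meristem BLJ arrays read 29.7, 13.1 and 170.3, and the probe set did not pass the filter in that comparison.

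Among all probe sets with 1 gene, those whose 13 group means followed UGT72E3 most closely were AT1G21520 (Pearson r = 0.87), AT3G24790 (0.87), AT4G16980 (0.85), AT3G07310 (0.82) and AT4G18930 (0.80). These are correlations over 13 group means, given as a description. AT4G16980 averaged 969 in UAS-BLJ, against 58.2 in SHR. Within the family the closest profile was that of UGT72E2 (r = 0.55), which averaged 2049 ± 166 (SD, n = 3) in UAS-BLJ, against 1972 ± 170 in SHR, and was called in none of the 6 lines against SHR. UGT72E1, which glucosylates coniferyl and sinapyl aldehydes, did not pass the filter in these 24 arrays.

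SHR was first compared with WT within the sorted ground tissue. In the one-cycle arrays 12 of 35 tested members were higher in SHR and 6 were lower, while 17.5% of all tested probe sets were called higher and 17% lower. The largest rises were those of UGT84A1, which makes glucose esters of hydroxycinnamic acids, UGT78D1, a flavonol rhamnosyltransferase, and UGT76B1, which glucosylates isoleucic and salicylic acids. UGT71C3 and UGT74F1, a salicylic acid glucosyltransferase, fell most. The median change was 0.19 for the members, against 0.07 for all probe sets. Actin 3' minus 5' was 4.06 ± 0.14 in SHR, against 1.78 ± 0.26 in WT (SD, log2, n = 3 each), while GAPDH gave -0.05 ± 0.16 in SHR, against 0.27 ± 0.19 in WT. The part of RNA quality in these changes was not tested.

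UGT84A1 read 425, 241 and 176 in SHR, against 30.9, 8.32 and 28.6 in WT. The groups were far apart, at a change of 2.91 ± 0.36 (adjusted p = 2.69e-06). UGT78D1 had 34.9, 84.4 and 53.8 in SHR and was close to the floor in WT, at 1.97, 2.69 and 1.40 (change 1.98 ± 0.36, adjusted p = 0.000272). UGT76B1 had 2325, 1216 and 3151 in SHR, against 639, 662 and 766 in WT (change 1.57 ± 0.30, adjusted p = 0.000343). UGT71C3 had 28.9, 29.1 and 35.2 in SHR, below the 90.4, 149 and 162 of WT (change -1.64 ± 0.34, adjusted p = 0.00082). UGT74F1 had 7.38, 3.54 and 23.9 in SHR, also below the 65.0, 42.2 and 85.2 of WT (change -1.57 ± 0.35, adjusted p = 0.00147). The other members higher in SHR were UGT71B1, UGT73B1, UGT73B4, UGT76C1, UGT76C2, UGT78D2, UGT85A2, UGT85A7 and UGT87A2, at changes of 0.50 to 1.19. The pair UGT76C1 and UGT76C2 encode cytokinin N-glucosyltransferases. The other members lower in SHR were UGT71C4, UGT76D1, UGT80B1 and UGT85A4 (-0.48 to -0.78).

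**Figure D3:**
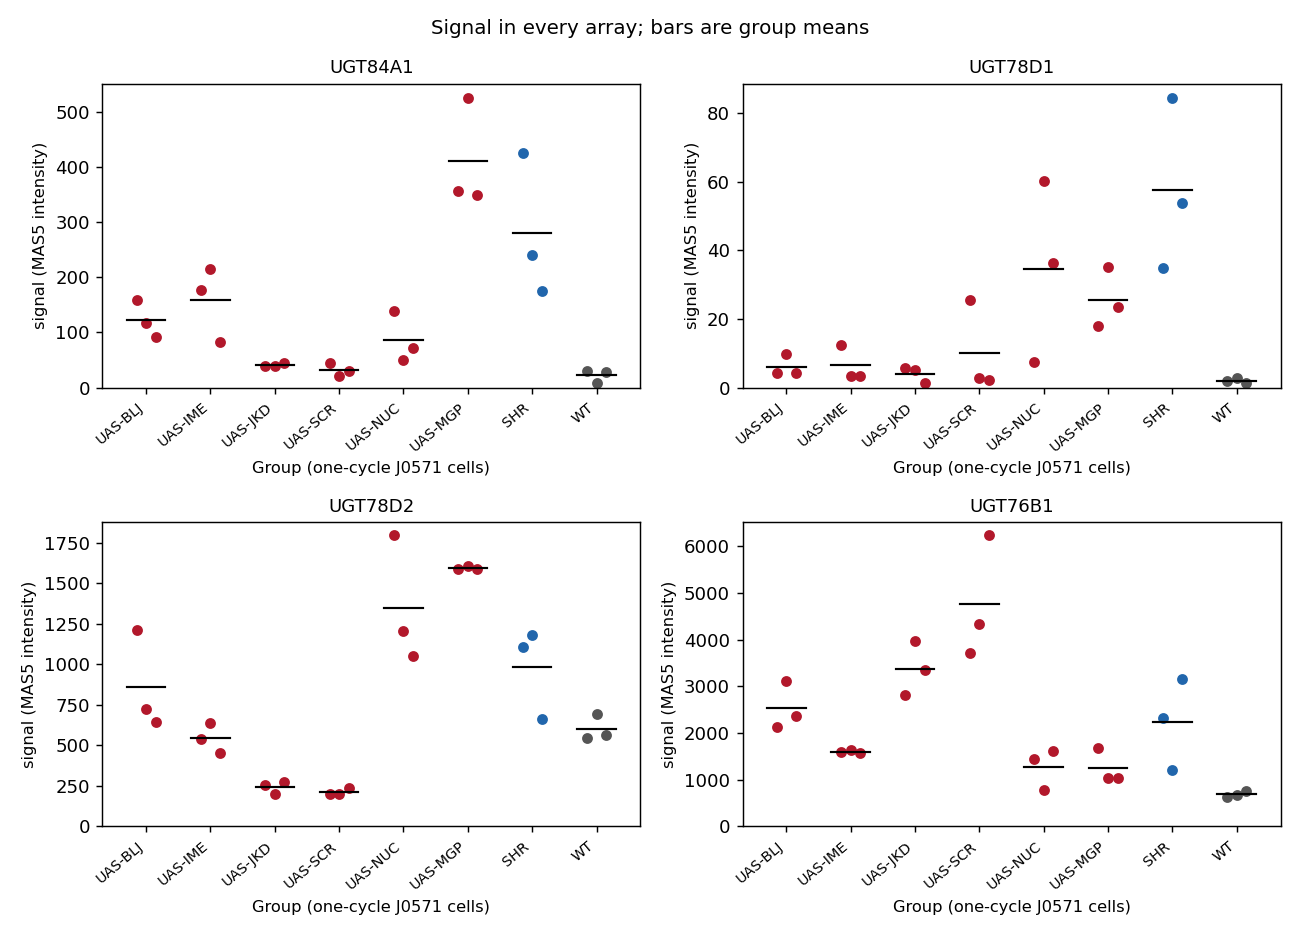
Signal (MAS5 intensity, linear axes from 0) of UGT84A1, UGT78D1, UGT78D2 and UGT76B1 in each one-cycle J0571 array, with UAS lines in red, SHR in blue, WT in dark grey and bars at the group means. UGT84A1 and UGT78D2 are lowest among the lines in those labelled UAS-JKD and UAS-SCR, while UGT76B1 reaches its highest values in UAS-SCR.

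Under the two-cycle protocol the direction was more uneven. Here 16 of 32 tested members were higher in SHR and 1, UGT71C3, was lower, while 13.9% of all tested probe sets were called higher and 14.8% lower. The median change was 1.05 for the members and -0.15 for all probe sets. UGT73D1 had 1336, 430.5 and 233 in SHR, against 17.0, 5.92 and 26.8 in WT, a change of 4.08 ± 0.59 (adjusted p = 0.00321). In the one-cycle arrays the same probe set read 30.5, 27.8 and 26.1 in SHR, against 11.9, 22.4 and 32.5 in WT, so that the groups overlapped. UGT84A1 followed with 295, 75.9 and 54.4 in SHR, against 2.53, 3.87 and 6.71 in WT (2.64 ± 0.53, adjusted p = 0.0106). UGT73C7 rose by 2.60 ± 0.49 (adjusted p = 0.00864). UGT71C3 had 28.2, 18.2 and 36.2 in SHR, against 110, 219 and 120 in WT (-1.89 ± 0.32, adjusted p = 0.00559). The count of 17 calls fell to 11 without WT replicate 3, SHR replicate 1 or SHR replicate 2. On these arrays the GAPDH 3' minus 5' difference was 2.50 ± 0.58 (SD, log2, n = 3) in SHR, against -0.02 ± 0.11 in WT, and that of actin 3.22 ± 0.18 in SHR, against 0.07 ± 0.12 in WT. Their part in these changes was not tested. The endodermis markers summed to 429 to 619 in two-cycle SHR, against 3340 to 12918 in WT. The cortex markers summed to 500.1 to 1707 in SHR, against 1268 to 2375 in WT, so that the groups overlapped. Only 2 of the 5 cortex markers were tested under this protocol, and neither was called.

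The protocols used separate arrays, and 31 members were tested under both. Of these, 9 were called under both and 8 in the same direction, against 10.3% and 6.95% of the 13929 probe sets tested under both. UGT73B1, UGT76B1, UGT76C1, UGT78D2, UGT84A1, UGT85A2 and UGT87A2 were higher in SHR in both sets and UGT71C3 lower in both. UGT76D1, which acts on dihydroxybenzoic acids, was lower in SHR in one set (-0.78, one-cycle) and higher in the other (0.86, two-cycle). The Pearson correlation of the changes over the 31 members was 0.46, a description across genes measured on the same arrays. The difference between the protocols was itself called for 14 of 33 members. It was higher under two-cycle labelling for 13 of them, where 16% of all probe sets were, and lower for 1, UGT71B1, where 20.6% were. UGT73D1 differed most (3.84 ± 0.68, adjusted p = 0.0017), followed by UGT76E12 (2.91 ± 0.57) and UGT73C7 (2.60 ± 0.58). UGT76E12 had 186, 123 and 78.2 in SHR, against 10.8, 17.3 and 3.14 in WT under two-cycle labelling, and 10.3, 6.20 and 21.5 in SHR, against 43.0, 31.8 and 5.43 in WT under one-cycle labelling. The 14 fell to 9 with a replicate block, to 9 without one-cycle WT 2_1 or 2_2, to 8 without WT 2_3 or SHR 2_2 and to 7 without SHR 2_3. Labelling and any other difference between the sets cannot be told apart.

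**Figure D4:**
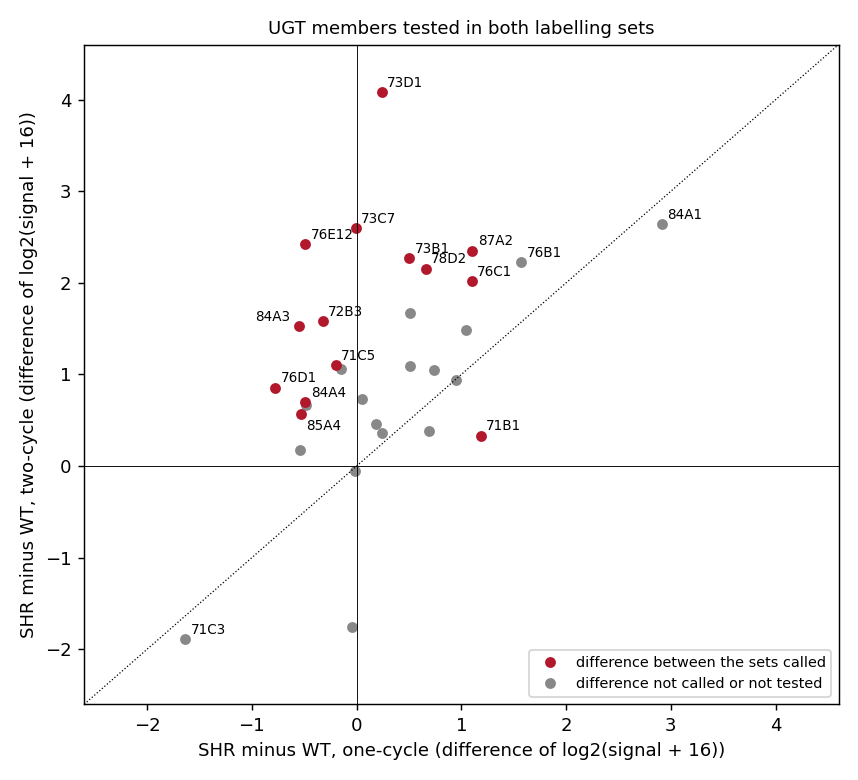
Change of each of the 31 members tested under both protocols, SHR minus WT as the difference of log2(signal + 16), one-cycle on the horizontal and two-cycle on the vertical axis, with red points where the difference between the protocols was called and names without the UGT prefix. Equal changes would lie on the dotted line, UGT84A1 and UGT71C3 lie near it, and UGT73D1 lies at 0.24 and 4.08.

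The UAS lines ask what each driven gene does in the SHR line. They all share the SHR arrays, so their results are given side by side and their likeness to each other is not counted. The SHR arrays had a 10th percentile of signal of 3.23 to 3.43 and UAS-BLJ 3.60 to 3.98, while those of UAS-NUC, UAS-MGP, the line labelled UAS-JKD, UAS-SCR and UAS-IME lay between 8.08 and 10.2. The part of this difference in the changes of dim members was not tested.

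In UAS-BLJ 4 of 35 tested members rose and 4 fell, while 6.47% of all tested probe sets rose and 4.67% fell. Next to UGT72E3, UGT72B3 of the same subfamily rose, with 154.9, 151 and 126 in UAS-BLJ, against 59.4, 37.1 and 21.9 in SHR (1.58 ± 0.25, adjusted p = 0.000137). UGT87A2, known for its effect on flowering time, had 441, 437 and 407 in UAS-BLJ, against 175, 145 and 181 in SHR (1.29 ± 0.17, adjusted p = 3.1e-05), and the fourth was UGT84A3 (1.11). UGT78D1 fell most, with 4.24, 9.86 and 4.27 in UAS-BLJ, against 34.9, 84.4 and 53.8 in SHR (-1.69 ± 0.36, adjusted p = 0.00312). UGT76E2 followed (-1.30 ± 0.20, adjusted p = 0.000152), and UGT85A7 (-0.86) and UGT74B1, the S-glucosyltransferase of glucosinolate synthesis (-0.62), fell by less than 2-fold. The 8 calls became 5 without UAS-BLJ replicate 2.

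In UAS-IME 5 members rose and 7 fell, while 13.2% of all probe sets rose and 7.94% fell. UGT72E3 was again the highest. UGT87A2 had 595, 556 and 486 in UAS-IME, against 175, 145 and 181 in SHR (1.62 ± 0.17, adjusted p = 1.82e-06), all 3 arrays above those of SHR. UGT76E12 rose by 1.57 ± 0.33 (adjusted p = 0.00186), and UGT84A3 (1.37) and the sterol glucosyltransferase gene UGT80B1 (0.58) rose too. UGT78D1 fell most, to 12.5, 3.44 and 3.49 in UAS-IME, against 34.9, 84.4 and 53.8 in SHR (-1.68 ± 0.36, adjusted p = 0.00229). The other members that fell were UGT71B1, UGT73B4, UGT74D1, which glucosylates auxins, UGT76E2, UGT78D2 and UGT85A7, by less than 2-fold (-0.47 to -0.99). Deviations from group means of same-numbered arrays correlated in all 3 pairs of these groups (0.21 to 0.60). With the replicate block the call of UGT71B1 ended (adjusted p = 0.0609). The 12 calls became 7 without UAS-IME replicate 1.

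In the line labelled UAS-JKD 8 members rose and 7 fell, while 23.4% of all probe sets rose and 22.8% fell, shares close to those of the family. UGT84A1, UGT78D2 and UGT78D1 fell most. UGT84A1 had 38.5, 38.7 and 45.0 in the line labelled UAS-JKD, against 425, 241 and 176 in SHR (-2.30 ± 0.36, adjusted p = 6.91e-05). UGT78D2, the flavonoid 3-O-glucosyltransferase, had 257, 198 and 272.5, against 1106, 1184 and 662.5 in SHR (-1.92 ± 0.24, adjusted p = 6.98e-06). UGT78D1 fell by 1.83 ± 0.36 (adjusted p = 0.000576). UGT73D1 rose most, with 88.0, 51.3 and 159 in the line labelled UAS-JKD, against 30.5, 27.8 and 26.1 in SHR (1.28 ± 0.37, adjusted p = 0.00825), which missed the threshold once UAS-JKD replicate 3 was left out (adjusted p = 0.0642). UGT84A4 (1.14 ± 0.33, adjusted p = 0.00927) and UGT72E3 came next.

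In UAS-SCR 13 members rose and 5 fell, while 25.1% of all probe sets rose and 22.6% fell. UGT84A1 had 44.7, 20.9 and 29.9 in UAS-SCR, against 425, 241 and 176 in SHR (-2.57 ± 0.36, adjusted p = 2.7e-05). UGT78D2 had 202, 198 and 236.5, against 1106, 1184 and 662.5 in SHR (-2.09 ± 0.24, adjusted p = 3.37e-06), and UGT78D1 fell by 1.55 ± 0.36 (adjusted p = 0.00215). All 3 genes were thus below their SHR level in both of these lines, whose arrays did not overlap SHR. UGT73D1 had 97.0, 92.4 and 186 in UAS-SCR, against 30.5, 27.8 and 26.1 in SHR (1.62 ± 0.37, adjusted p = 0.00171). Also of subfamily 73, UGT73B4 (1.21 ± 0.23, adjusted p = 0.000522), UGT73B5 (1.04) and UGT73B1 (0.69) rose, so that 4 of its 5 tested members did. UGT76E12 rose by 1.2 ± 0.33 (adjusted p = 0.00624) and UGT76B1 by 1.16 ± 0.30 (adjusted p = 0.00396). Only 2 of 8 markers of the epidermis and root hairs could be named, EXPA7 and EXPA18. They summed to 604 to 962 in the line labelled UAS-JKD and 339 to 804 in UAS-SCR, against 92.0 to 140.2 in SHR, and 39.2 to 239 in the other 4 lines. GAPDH 3' minus 5' was 1.22 ± 0.78 in the line labelled UAS-JKD and 1.40 ± 0.06 in UAS-SCR, against -0.05 ± 0.16 in SHR (SD, log2, n = 3 each). It was also above SHR in UAS-MGP (0.91 ± 0.25), UAS-NUC (0.71 ± 0.05) and UAS-IME (0.51 ± 0.18), and it was 0.02 ± 0.12 in UAS-BLJ. The actin means of the lines ran from 2.38 in UAS-MGP to 4.98 in the line labelled UAS-JKD, against 4.06 in SHR. Of the 4 named endodermis markers 3 were called higher and 1 lower in UAS-SCR than in SHR (summed signal 1635 to 2948 in UAS-SCR, against 1198 to 1652 in SHR), and 1 higher and 2 lower in the line labelled UAS-JKD (1113 to 1279.6). The part of these in the changes was not tested.

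In UAS-NUC 10 members rose and 6 fell, while 20.1% of all probe sets rose and 20.6% fell. UGT76E12 rose most, with 106.5, 93.5 and 146 in UAS-NUC, against 10.3, 6.20 and 21.5 in SHR (2.21 ± 0.33, adjusted p = 5.4e-05). UGT84A3, another enzyme of hydroxycinnamate esters, rose by 1.23 ± 0.33 (adjusted p = 0.00635), and that call ended without SHR 2_2 (adjusted p = 0.0506). UGT76D1 rose by 1.23 ± 0.29 (adjusted p = 0.00267). UGT84A1 fell most, to 139, 50.2 and 71.8 in UAS-NUC, against 425, 241 and 176 in SHR (-1.53 ± 0.36, adjusted p = 0.00243). UGT78D1 and UGT78D2 overlapped SHR in UAS-NUC (-0.64 and 0.46, not called). The 16 calls became 10 on the 6 arrays of these groups alone, 9 without SHR 2_3 and 8 without UAS-NUC replicate 1.

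In UAS-MGP 5 members rose and 1, UGT72E3, fell, while 5.31% of all probe sets rose and 3.76% fell. UGT76E12 had 42.7, 87.8 and 37.4 in UAS-MGP, against 10.3, 6.20 and 21.5 in SHR (1.30 ± 0.33, adjusted p = 0.017). This call ended after quantile normalization (adjusted p = 0.0606) and without SHR 2_1 (0.0577), SHR 2_2 (0.0767) or UAS-MGP 2 (0.0888). UGT72B3 rose by 1.05 ± 0.25 (adjusted p = 0.0107), which missed the threshold with SHR 2_3 left out (0.072). The others were UGT87A2 (0.94), UGT73B1 (0.67) and UGT80B1 (0.67). UGT84A1 read 356, 525 and 349.5 in UAS-MGP and overlapped SHR (0.59 ± 0.36, adjusted p = 0.339).

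Each line was also set against the mean of the other 5, which leaves the SHR arrays out. UGT78D2 had 1795, 1203 and 1050.5 in UAS-NUC and 1590, 1607 and 1590.2 in UAS-MGP, above every array of the lines labelled UAS-JKD, UAS-SCR and UAS-IME. UGT73B4 had 539, 602 and 899.9 in UAS-SCR and 155, 102 and 145 in UAS-IME, the highest and the lowest mean of the 6 lines, overlapping the line labelled UAS-JKD at the top and UAS-NUC at the bottom. UAS-MGP had 13 calls (34.8% of all probe sets were called), with UGT84A1 (2.23 ± 0.28, adjusted p = 1.46e-05) and UGT78D2 (1.65 ± 0.18) at the top and UGT72E3 at the bottom (-2.30 ± 0.13). UAS-NUC had 10 (13.9% of all), with UGT78D2 (1.31 ± 0.18) and UGT76E12 (1.04 ± 0.26) highest and UGT72E3 lowest (-2.07 ± 0.13), and the UGT76E12 call ended without UAS-NUC 3 (adjusted p = 0.102). The line labelled UAS-JKD had 10 (24.1% of all), with UGT72B3 (-1.59 ± 0.19), UGT78D2 (-1.54 ± 0.18) and UGT84A1 (-1.24 ± 0.28) lowest and no rise of 2-fold. UAS-SCR had 12 (28.4% of all), with UGT73B4 (1.54 ± 0.18), UGT76B1 (1.34 ± 0.23) and UGT73D1 (1.22 ± 0.28) highest and UGT78D2 (-1.74 ± 0.18) and UGT84A1 (-1.57 ± 0.28) lowest. The UGT73D1 call in UAS-SCR ended without UAS-SCR 3 (adjusted p = 0.0648). UAS-BLJ had 12 (36% of all), with UGT72E3 (2.99 ± 0.13) and UGT72B3 (1.37 ± 0.19) highest. UAS-IME had 3 (9.41% of all), which were UGT72E3 (2.40 ± 0.13), UGT87A2 (0.66 ± 0.14) and UGT73B4 (-1.10 ± 0.18). Counts moved by more than 1.5 times for UAS-BLJ (6 after quantile normalization, 5 without UAS-BLJ 1 and 7 without UAS-BLJ 2), UAS-NUC (6 without UAS-NUC 3), UAS-MGP (8 without UAS-MGP 1 or 3) and UAS-SCR (5 without UAS-SCR 3).

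UGT87A2, UGT80B1 and UGT76E12 were called higher than SHR in 5 of the 6 lines each. In a single line 5.31% (UAS-MGP) to 25.1% (UAS-SCR) of all probe sets were called higher. The share of all probe sets called higher in 5 lines was not counted, so nothing particular to the 3 members is read from it. These members were picked after their values were seen, and their levels are given side by side since the comparisons share the SHR arrays. UGT87A2 averaged 428 ± 18.7 in UAS-BLJ, 387 ± 43.4 in UAS-NUC, 340.4 ± 87.2 in UAS-MGP, 358 ± 79.0 in UAS-SCR and 545 ± 55.3 in UAS-IME, against 167 ± 19.4 in SHR (SD, n = 3 each). In the line labelled UAS-JKD it was not called (0.42). UGT80B1 averaged 144 ± 5.64 in UAS-NUC, 151 ± 22.1 in UAS-MGP, 191 ± 10.2 in the line labelled UAS-JKD, 149 ± 10.8 in UAS-SCR and 141 ± 2.82 in UAS-IME, against 89.2 ± 12.7 in SHR, and in UAS-BLJ it was not called (0.19). UGT76E12 averaged 115 ± 27.3 in UAS-NUC, 56.0 ± 27.7 in UAS-MGP, 39.5 ± 6.30 in the line labelled UAS-JKD, 50.1 ± 18.5 in UAS-SCR and 69.5 ± 23.7 in UAS-IME, against 12.7 ± 7.91 in SHR. It was not called in UAS-BLJ, at 32.4 ± 5.38 (0.79, adjusted p = 0.146). The 5 lines in which UGT76E12 and UGT80B1 were called are those with the higher 10th percentile of signal. The lines in which UGT87A2 was called include UAS-BLJ and leave out the line labelled UAS-JKD. UGT80B1 averaged above the median of all probe sets in 13 groups and UGT76E12 in 3. The part of the 10th percentile in these calls was not tested.

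Of the meristems, the BLJ arrays against WT asked what the line labelled BLJ changes in the meristematic zone. None of 28 tested members was called by limma, while 2.72% of all tested probe sets were. An unadjusted p under 0.05 was found for 5 members. The share of all probe sets at that unadjusted threshold was not counted, so nothing is read from the 5. UGT84A3 came nearest, with 39.6, 109 and 185 in BLJ, against 0.781 and 0.673 in WT (2.21 ± 0.59, adjusted p = 0.0969). UGT73C7 followed, with 164, 149 and 291 in BLJ, against 35.0 and 10.7 in WT (1.73 ± 0.53, adjusted p = 0.125). UGT78D1 had 29.7, 10.9 and 8.13 in BLJ, against 61.0 and 45.1 in WT (-1.89 ± 0.62, adjusted p = 0.136). These 3 were picked after their values were seen. Their signals are printed as deposited, while their changes come from quantile-normalized values, so the changes cannot be recomputed from the signals. The count became 4 with a replicate block, 3 without BLJ replicate 1, 2 on the deposited scaling and 1 without BLJ replicate 3. With BLJ array 1 alone against both WT arrays, an alternative chosen after the BLJ arrays had been seen to differ, it was 15 (13 higher and 2 lower), with the lone array assumed to vary like WT.

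CO2 cells against WT meristems ask which genes are enriched in sorted cortex cells over the whole zone. Here 24 of 34 tested members were higher and 3 lower in CO2 cells, while 31.2% of all tested probe sets were called higher and 41.4% lower. The median change was 1.52 for the members and -0.29 for all probe sets. UGT76B1 was highest, with 5189, 4574 and 6663 in CO2 cells, against 152 and 131 in WT meristems (5.11 ± 0.24, adjusted p = 1.11e-06). UGT71C1 had 1715, 1327 and 1377 in CO2 cells, against 29.4 and 37.2 in WT meristems (4.91 ± 0.22, adjusted p = 1.08e-06). UGT72E3 rose by 3.66 ± 0.24 (adjusted p = 5.25e-06). UGT72E2 stood at 3008, 3071 and 3645 in CO2 cells, against 280.0 and 328 in WT meristems (3.35 ± 0.21, adjusted p = 4.7e-06). UGT78D1 was lowest, with 1.64, 2.92 and 16.3 in CO2 cells, against 61.0 and 45.1 in WT meristems (-1.64 ± 0.32, adjusted p = 0.00185), and UGT72E1 had 12.4, 6.45 and 13.9, against 47.4 and 52.9 (-1.31 ± 0.25, adjusted p = 0.00163). The members of subfamily 72E thus lay on both sides. By subfamily, 6 of 7 tested members of 71, 5 of 5 of 73, 3 of 3 of 74 and 5 of 7 of 76 were higher, and the 1 tested member of 84, UGT84A4, was lower.

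**Figure D5:**
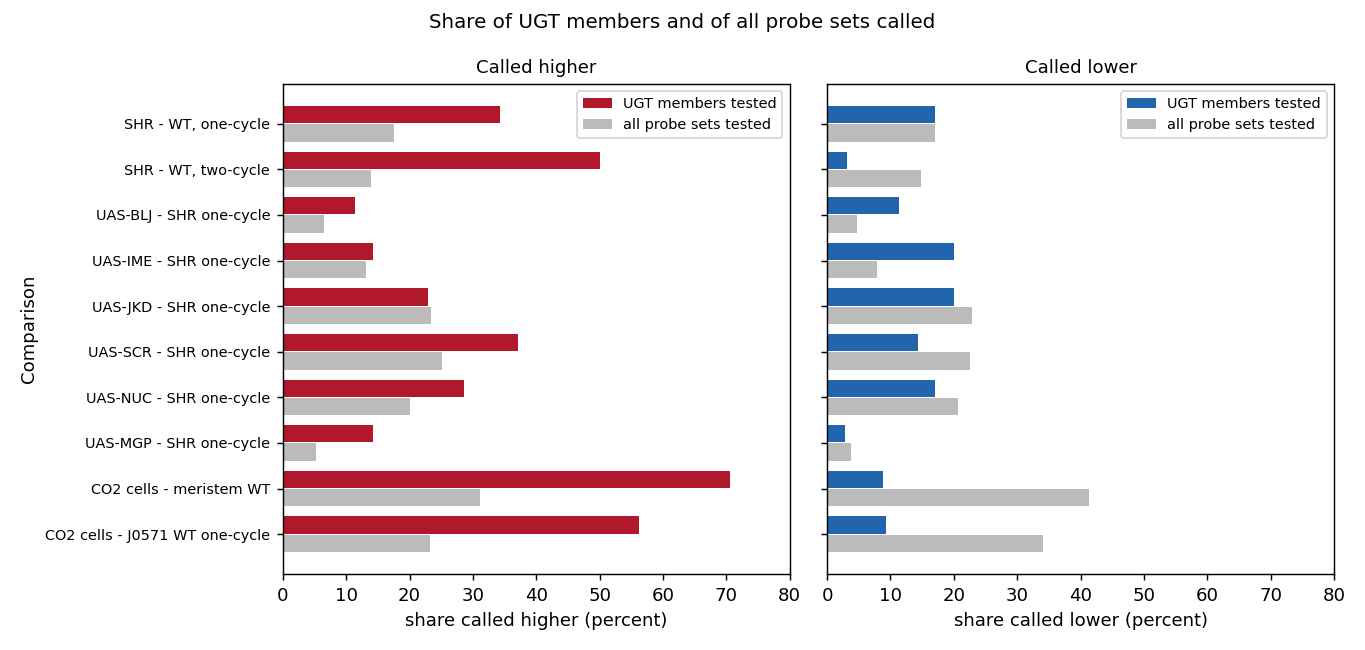
Share of tested UGT members (coloured bars) and of all tested probe sets (grey bars) called higher (left) or lower (right) in the first-named group, in percent, for 10 comparisons. The coloured bar exceeds the grey one most clearly on the left for CO2 cells, at 70.6% against 31.2% and 56.2% against 23.2%, and for SHR against WT under two-cycle labelling, at 50% against 13.9%.

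Against J0571 cells of WT (one-cycle), 18 of 32 tested members were higher and 3 lower in CO2 cells, while 23.2% of all tested probe sets were called higher and 34.1% lower. UGT73B4 was highest, with 2224, 1372 and 1591 in CO2 cells, against 165, 145 and 105.5 in J0571 WT cells (3.49 ± 0.23, adjusted p = 1.61e-05). In WT meristems the same probe set had 982 and 796. UGT73B5 (2.99 ± 0.23, adjusted p = 2.43e-05) and UGT76B1 (2.95 ± 0.19, adjusted p = 1.29e-05) came next. UGT72B3 was lowest, with 4.35, 28.1 and 8.32 in CO2 cells, against 59.6, 35.4 and 60.5 in J0571 WT cells (-1.26 ± 0.32, adjusted p = 0.00939). All 5 tested members of subfamily 73 were higher in CO2 cells in this comparison also. Against J0571 WT cells all 4 named endodermis markers were lower in CO2 cells, and of the 5 cortex markers 2 were higher and 3 lower. CO2 and J0571 cells are both sorted, and the meristems are dissected tissue. So cell type and cell sorting cannot be told apart against meristems, which share the ecotype. Against J0571 WT cells, whose labels name no root zone, cell type, ecotype and any difference of zone cannot be told apart. GAPDH 3' minus 5' was 2.86 ± 0.36 in CO2 cells (n = 3), against 3.51 ± 0.12 in WT meristems (n = 2). It was 0.27 ± 0.19 in J0571 WT cells (n = 3, SD, log2). Actin gave 6.72 ± 0.53 in CO2 cells, 6.32 ± 0.02 in WT meristems and 1.78 ± 0.26 in J0571 WT cells. The part of these differences was not tested.

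Lists of genes by role add relatives that carry another symbol. Of 8 listed genes of phenylpropanoid glucosylation 7 could be named (6 members and GT72B1). In the one-cycle set 1 of 6 tested, UGT84A1, was higher in SHR than in WT and none was lower. Against SHR, 2 rose and none fell in UAS-BLJ and in UAS-IME, and 2 rose and 1 fell in the line labelled UAS-JKD and in UAS-SCR. The list's non-member GT72B1 averaged 2964 ± 1009 in UAS-SCR, against 934 ± 271 in SHR (1.63 ± 0.33, adjusted p = 0.000749). It also averaged 3506 ± 804 in CO2 cells, against 11.3 ± 6.25 in WT meristems (n = 2). In UAS-NUC 2 rose and 2 fell, and in UAS-MGP none rose and 1 fell. Of all probe sets 23.4% rose and 22.8% fell in the line labelled UAS-JKD, and 25.1% rose and 22.6% fell in UAS-SCR, near these counts. The shares that rose and fell were 6.47% and 4.67% in UAS-BLJ and 13.2% and 7.94% in UAS-IME. They were 20.1% and 20.6% in UAS-NUC and 5.31% and 3.76% in UAS-MGP. In SHR against one-cycle WT 17.5% of all probe sets were higher and 17% lower. The median change lay between 0.01 and 0.51 in the 6 lines. The list was chosen with earlier results known and holds UGT72E3, singled out for its change in UAS-BLJ. No excess over the shares of all probe sets is therefore read from these counts.

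Of 6 listed genes of flavonoid glycosylation all could be named, 3 of them members, and 3 were tested in the 24 arrays: UGT78D1, UGT78D2 and AT1G06000. All 3 were higher in SHR than in WT. All 3 fell in the line labelled UAS-JKD (median -1.83) and in UAS-SCR (median -1.57), where the median of all probe sets was 0.00 and 0.02. AT1G06000 averaged 1107 ± 115 in the line labelled UAS-JKD and 925 ± 108 in UAS-SCR, against 2797 ± 546 in SHR (SD, n = 3 each). In UAS-IME 2 fell, in UAS-BLJ 1 fell, and in UAS-NUC and UAS-MGP none was called. Of all probe sets 22.8% fell in the line labelled UAS-JKD, 22.6% in UAS-SCR, 7.94% in UAS-IME and 4.67% in UAS-BLJ. In the one-cycle set 17.5% of all probe sets were higher in SHR than in WT. UGT78D1 and UGT78D2 were chosen with their values already known, as was the rest of the list.

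Of 11 listed genes of hormone conjugation 7 could be named, all members, and 4 were tested in the 24 arrays: UGT71C5, an abscisic acid glucosyltransferase, UGT74D1, UGT76C1 and UGT76C2. The cytokinin genes UGT76C1 (1.10 ± 0.36) and UGT76C2 (0.69 ± 0.14) were higher in SHR than in one-cycle WT. UGT74D1 fell in UAS-NUC (-0.53), the line labelled UAS-JKD (-0.59), UAS-SCR (-0.81) and UAS-IME (-0.70). It averaged 898 ± 101 in UAS-NUC, 872 ± 221 in the line labelled UAS-JKD, 735 ± 52.8 in UAS-SCR and 792 ± 93.5 in UAS-IME, against 1296 ± 36.3 in SHR (SD, n = 3 each). UGT71C5 rose in UAS-NUC (0.56) and UAS-SCR (0.82). In CO2 cells 3 of the 4 were higher than in WT meristems, as were 31.2% of all probe sets.

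Of 7 listed genes of glucosinolates and defence 5 could be named (4 members), and of 4 tested, 4 were higher in CO2 cells than in WT meristems and 3 higher than in J0571 WT cells, where 31.2% and 23.2% of all probe sets were. Against SHR, 2 rose in UAS-SCR (UGT73B5 and UGT76B1), 1 rose in the line labelled UAS-JKD (UGT74F1), 1 fell in UAS-BLJ (UGT74B1) and 1 fell in UAS-NUC (UGT76B1). Of all probe sets 25.1% rose in UAS-SCR and 23.4% in the line labelled UAS-JKD, while 4.67% fell in UAS-BLJ and 20.6% in UAS-NUC. Both listed sterol glucosyltransferase genes could be named, UGT80B1 and SGT. UGT80B1 was lower in SHR than in one-cycle WT (-0.54 ± 0.14), and both were higher in CO2 cells than in WT meristems and in J0571 WT cells.

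Few genes that supply or use the same compounds could be named. They were 1 of 14 for monolignol synthesis, 1 of 7 for flavonoid synthesis, 4 of 6 for glucoside hydrolysis and none of 9 each for glucosinolate core synthesis and UDP-sugar supply. HCT, the hydroxycinnamoyl transferase of monolignol synthesis, rose in UAS-IME to 2433 ± 328, against 1416 ± 349 in SHR (0.79 ± 0.23, adjusted p = 0.0191), and in UAS-NUC (0.66 ± 0.23, adjusted p = 0.0304). It was not called in UAS-BLJ (0.45, adjusted p = 0.261). The named gene of flavonoid synthesis, DFR, did not pass the filter in the 24 arrays. Among beta-glucosidases, which remove such sugars, BGLU46 had 231 ± 68.1 in SHR, against 761 ± 337 in WT under one-cycle labelling (-1.61 ± 0.39, adjusted p = 0.00298), and 1801 ± 900 in SHR, against 481 ± 220 in WT under two-cycle labelling (1.84 ± 0.44, adjusted p = 0.0197). BGLU42 was higher in SHR in the one-cycle set (1.23 ± 0.22) and PYK10 in the two-cycle set (1.74 ± 0.28).

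Many UGT genes lie next to a relative in the genome. By the order of genes in TAIR10.1, 14 pairs of members are direct neighbours, all within a subfamily. Over the 13 group means of log2 signal their correlation had a median of 0.50 and ran from -0.30 (UGT84B1 and UGT84B2, both tested nowhere) to 0.86 (UGT71C4 and UGT71C5). UGT73C7 and UGT73D1 followed at 0.83, UGT85A2 and UGT85A7 at 0.71, UGT73B4 and UGT73B5 at 0.68 and UGT84A3 and UGT84A4 at 0.66. UGT84A1 and its neighbour UGT84A3 reached 0.23, and in UAS-NUC the first fell while the second rose. The median was 0.16 both for 103 pairs of 1 subfamily that are not neighbours and for 964 pairs of different subfamilies. These are descriptions over 13 groups that differ in labelling, ecotype and tissue, in genes measured on the same arrays. Whether probes of closely related neighbours bind both transcripts was not tested.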

How the data were processed

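Per the labels, the values came from ATH1 arrays, and per the submitters' processing notes the authors made the deposited linear intensities with MAS5. Replicates were not pooled. Control probe sets (64 of 22810) were left out, and 8730 others carry no gene name here. log2(intensity + 16) was fitted with limma 3.58.1 (lmFit, eBayes with trend) in R 4.3.3, in 1 fit of the 24 one-cycle arrays for the UAS lines and SHR against WT, and in separate fits elsewhere. A probe set was tested if its signal passed the fit's 40th percentile in a number of arrays no lower than the size of the smaller group. Quantile normalization was applied only where array medians spanned over 0.5 log2 units (meristem BLJ against WT, 1.27). The 3 called members of largest rise and fall, at 2-fold or more, were named in each comparison, together with UGT72E3, the brightest member of each subfamily of 3 or more and the genes of the role lists; other called members are listed with their range. Members, lists and tests were chosen with earlier results of these data known. Deviations from group means of same-numbered arrays correlated above 0.1 in all 3 pairs only for UAS-IME and SHR (0.21 to 0.60). There the block kept 11 of the 12 called members. In 2 of 3 pairs they did so for UAS-NUC and SHR (up to 0.527), one-cycle SHR and WT (up to 0.431) and CO2 cells and one-cycle WT (up to 0.515). On data simulated for UAS-BLJ against SHR (14985 probe sets), 68% of 2-fold and 97% of 4-fold changes were recovered, with 10 false calls. Changes were placed only in probe sets above the median SHR signal, with independent noise, so these rates do not cover dim members. Arrays give no read depth, so the number of arrays limits the precision. Alternatives were a pseudocount of 64, the other normalization, no filter, the replicate block, the compared arrays alone and each array left out.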

Additional observations from a re-analysis of the deposited data

Results flagged for a closer look

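For 14 members the SHR minus WT change differed between two-cycle and one-cycle labelling by a test of the difference itself (limma interaction, adjusted over all probe sets). In log2 units the difference, two-cycle minus one-cycle, was 3.84 for UGT73D1, 2.91 for UGT76E12, 2.60 for UGT73C7, 2.07 for UGT84A3, 1.91 for UGT72B3, 1.76 for UGT73B1 and 1.63 for UGT76D1. It was 1.49 for UGT78D2, 1.30 for UGT71C5, 1.24 for UGT87A2, 1.19 for UGT84A4, 1.10 for UGT85A4 and 0.92 for UGT76C1. For UGT71B1 alone it was negative, at -0.86. The calls of UGT71B1, UGT73B1, UGT76C1, UGT85A4 and UGT87A2 missed the threshold with a replicate block (adjusted p = 0.0503 to 0.0682), with no filter, and in 7 to 11 of 12 fits that left out 1 array. That of UGT71B1 also ended after quantile normalization and that of UGT76C1 with a pseudocount of 64. Leaving out 1 array ended the call of UGT71C5 in 4 fits, and those of UGT78D2 and UGT84A3 in 2 each. The calls of UGT73D1, UGT76E12, UGT73C7, UGT72B3, UGT76D1 and UGT84A4 held in all 16 alternatives run. No outlying array could be tested for, since every group held 3 arrays or fewer.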

How the results depend on the processing

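Of 82 called values of the named members, 1061 of 1150 recomputed values stayed called in the same direction, 89 fell short of the threshold and none reversed. Counts of called members that left 1.5 times the reported one were 9 for the protocol difference with a replicate block (14 reported), 10 for UAS-NUC on its 6 arrays (16) and 6 for UAS-BLJ against the other lines after quantile normalization (12). For meristem BLJ (0) they were 2 on the deposited scaling, 4 with a replicate block and 15 with array 1 alone. Leaving out 1 array gave 11 to 19 calls for two-cycle SHR against WT, 7 to 20 for the protocol difference, 5 to 7 for UAS-BLJ, 8 to 16 for UAS-NUC, 7 to 11 for UAS-IME and 0 to 3 for meristem BLJ. Against the other 5 lines it gave 5 to 13 for UAS-BLJ, 6 to 11 for UAS-NUC, 8 to 14 for UAS-MGP and 5 to 12 for UAS-SCR. The uncalled one-cycle change of UGT72E3, SHR minus WT, ran from -0.103 to 0.0416 with 1 array left out (-0.116 after quantile normalization), changing sign without WT 2_3 (0.0416) or SHR 2_3 (0.0028). With a pseudocount of 64, UGT72E3 in the line labelled UAS-JKD against the other lines became called (-0.32, adjusted p = 0.0183). Deviations of same-numbered arrays correlated above 0.1 in all 3 pairs only for UAS-IME and SHR. In 2 of 3 pairs they did so for UAS-NUC and SHR, one-cycle SHR and WT, and CO2 cells and one-cycle WT. Over all 18 comparisons the block kept 218 of 232 calls and added 7, and it ended those of UGT76B1, UGT76D1 and UGT84A3 in two-cycle SHR against WT. The cause of these moves was not tested. Dim members, near the floor in whole groups, limit what can be called, and 2 to 3 arrays per group limit the precision.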
